A study of Homo sapiens with 6 samples.

Results

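The 9 genes described here encode the steroid hormone receptors and the transcription factors that define luminal identity in the mammary epithelium: ESR1, PGR, FOXA1, GATA3, XBP1, SPDEF, TFAP2C, TRPS1 and ELF5. They were chosen by name, with earlier results of these data known. Each is 1 row of the gene count tables, out of 27754 genes listed there. All 9 were among the 15657 genes with enough counts to be tested. In hypoxia, 8 of the 9 genes fell and 0 rose, whereas 29.1% of all tested genes were called lower and 30.4% higher (edgeR's quasi-likelihood test, adjusted p under 0.05). PGR and ESR1 fell the most, at 7.62-fold and 3.64-fold lower than in normoxia.

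RNA was sequenced from T47D cells, an established human breast cancer cell line with luminal features, grown as an adherent culture in RPMI medium with 10% serum. The study asked how hypoxia changes the plasticity of breast cancer cells. Normoxia (3 libraries) was standard culture at 20% O2. Hypoxia (3 libraries) was 48 h in a chamber that the sample labels place at 0.5% O2, whereas the text of the study gives 1% O2 for this experiment. All 6 libraries came from the same unmodified line, for which the labels name no transgene and no drug, so the comparison rests on 1 line. The study describes the replicates as independent experiments, and the p-values measure the spread between the 3 libraries of each group. In RNA from a whole culture, fewer cells that express a gene and less RNA per cell cannot be told apart.

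ESR1 encodes estrogen receptor alpha, a nuclear receptor that binds DNA once estrogen occupies it, and PGR encodes the progesterone receptor, whose gene is a long known target of estrogen receptor alpha. FOXA1 is a pioneer factor that opens chromatin for estrogen receptor alpha, and GATA3 acts with both of them at many of the same enhancers of luminal cells. In the mammary gland, hormone-sensing luminal cells carry these receptors, whereas ELF5 is known for directing the milk-producing alveolar lineage.

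The promoter sequences are given first, since each gene can then be read against the DNA in front of an annotated start site. RefSeq promoter windows (from GRCh38.p14) were used for 7 of the 9 genes, as 20 windows of 250 bases upstream of an annotated start site, and each was found once in GRCh37, the build of the count tables. For each gene the window nearest to the first counted exon was taken, and bases inside an exon of a protein-coding gene were removed. The 4 stretches shown belong to the genes with the largest falls (PGR, ESR1 and SPDEF) and to XBP1, whose window held the most matches to the hypoxia response core. They run 5′ to 3′ on the strand of the gene, and capitals mark matches on either strand to that core (ACGTG or GCGTG) or to the GGTCA unit of the estrogen response element.
PGR, chr11:101000545-101000794, minus strand: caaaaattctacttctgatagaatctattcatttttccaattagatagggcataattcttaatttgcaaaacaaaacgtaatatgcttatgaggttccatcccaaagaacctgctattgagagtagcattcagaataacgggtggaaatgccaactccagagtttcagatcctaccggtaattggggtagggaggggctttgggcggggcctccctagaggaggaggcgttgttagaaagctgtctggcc
ESR1, chr6:152011412-152011630, plus strand: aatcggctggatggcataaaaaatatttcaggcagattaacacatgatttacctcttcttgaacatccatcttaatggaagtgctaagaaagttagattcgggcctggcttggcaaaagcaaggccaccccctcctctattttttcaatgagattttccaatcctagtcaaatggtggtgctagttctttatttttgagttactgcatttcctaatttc
SPDEF, chr6:34524111-34524356, minus strand: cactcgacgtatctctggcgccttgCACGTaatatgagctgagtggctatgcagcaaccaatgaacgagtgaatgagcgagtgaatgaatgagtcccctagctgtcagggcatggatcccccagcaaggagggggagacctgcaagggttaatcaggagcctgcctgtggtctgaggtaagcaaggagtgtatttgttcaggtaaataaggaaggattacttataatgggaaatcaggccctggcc
XBP1, chr22:29196586-29196807, minus strand: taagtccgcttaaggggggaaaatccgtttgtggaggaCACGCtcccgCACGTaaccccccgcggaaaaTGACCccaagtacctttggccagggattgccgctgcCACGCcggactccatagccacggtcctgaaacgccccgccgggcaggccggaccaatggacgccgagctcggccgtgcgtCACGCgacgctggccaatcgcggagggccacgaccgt

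The stretches of PGR and ESR1 held no match to the hypoxia response core or to the GGTCA unit. In the part of the ESR1 window that lies in an exon, and is not shown, a GGTCA unit began 29 bases upstream of the start site. Further annotated ESR1 start sites lie 115209 to 118611 bases downstream of the first counted base, and their windows are not shown. The SPDEF stretch held 1 core, 225 bases upstream. The XBP1 stretch held 4 cores, at 212, 202, 145 and 65 bases upstream, and 1 GGTCA unit at 181 bases. A core therefore stood in 2 of the 7 nearest windows, and 43.2% of 35116 windows of the same length in the RefSeq table held one. Over all 20 windows, 7 held a core, among them the windows of a pair of downstream ESR1 start sites. The GGTCA unit was found in 4 of the 7 nearest windows, those of ESR1, GATA3, XBP1 and ELF5, beside 32.6% of all windows. Over all 20 windows, 9 held it, among them both other PGR windows, which overlap and share 1 unit, 166 or 180 bases upstream of their start sites.

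The full estrogen response element (GGTCANNNTGACC, which holds that unit on both strands) was in 0 of the 20 windows and in 0.0399% of all windows. The GATA motif (AGATAA or TGATAA) was in 0 of the 20 and in 14.6% of all windows. The forkhead motif (TGTTTAC or TGTTTGC) was in 2 of the 7 nearest windows, those of FOXA1 and ELF5, and in 6.09% of all windows. Every motif was searched on both strands, and a core that reads the same on both strands counts once for each. These are matches of letters within 250 bases. They do not show binding, and enhancers lie outside such windows.

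The libraries held 32989104 to 89883409 counts, and hypoxia replicate 3 was the deepest. At these depths 3 counts, a floor that covers counting error only, correspond to 0.0328 to 0.0969 CPM (counts scaled to library size with TMM factors). The lowest count of any of the 9 genes in any library was 2715 (ESR1 in hypoxia replicate 2), so counting error was small for all of them. All 8 genes of a list of hypoxia response genes rose, beside 30.4% of all tested genes. Among them EGLN3, an oxygen-sensing hydroxylase, rose by 5.51 on the log2 scale and CA9, a carbonic anhydrase, by 5.29. CA9 had 37, 26 and 6 counts in normoxia replicates 1 to 3 and passed the filter only with its hypoxia libraries. The luminal keratin KRT8 averaged 5801 ± 1445 CPM in normoxia and 4070 ± 964 in hypoxia (SD, n = 3), while the basal keratins KRT5 and KRT14 had at most 42 and 3 counts in a library and the leukocyte gene PTPRC at most 5. Both libraries numbered 3 stood apart: the mesenchymal gene VIM had 7, 12 and 395 counts in normoxia replicates 1 to 3 and 35, 35 and 1001 in hypoxia replicates 1 to 3. CAV1, MSN and CAV2 were likewise highest in the library numbered 3 of each group. Not all mesenchymal genes did so. FN1 was lowest there, at 46.8, 41.9 and 27.8 CPM in normoxia replicates 1 to 3 and 102, 95.9 and 78.0 CPM in hypoxia. Results for the 9 genes are therefore also given without both libraries numbered 3.

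PGR showed the largest fall. It was at 1368, 1469.6 and 909.9 CPM in normoxia replicates 1, 2 and 3 and at 175, 186 and 131 CPM in hypoxia replicates 1, 2 and 3. The groups were far apart, and replicate 3 was the lowest library in each. The mean went from 1249 ± 298 to 164 ± 28.9 CPM (SD, n = 3), which gave a log2 fold change of -2.93 (SE 0.211, 95% interval -3.42 to -2.44, adjusted p = 5.99e-05, edgeR's quasi-likelihood test with Benjamini-Hochberg adjustment over all tested genes). Of the 12665 tested genes averaging 100 counts or more, 9 had a lower log2 fold change. Without both libraries numbered 3 the value was -2.97.

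The counted exons of PGR (chr11:100900355-101000544, minus strand, 13037 bases) share 737 bases with those of PGR-AS1, an antisense gene on the opposite strand, between chr11:100999808-101000544. The strand setting of the counting is not given in the sources used here. Reads from the shared bases may have been assigned to PGR, to PGR-AS1 or to neither. PGR-AS1 had 68, 62 and 56 counts in normoxia and 13, 18 and 28 in hypoxia, which was 0.113% to 0.265% of the PGR count in the same library. The antisense gene was also lower in hypoxia, with a log2 fold change of -2.24 (SE 0.263, adjusted p = 3.38e-04, edgeR's quasi-likelihood test). The exons of the other 8 genes share no base with another gene of the count tables.

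ESR1 (chr6:152011631-152450738, plus strand, 14 exon blocks) had the next largest fall. Its level was 256, 257 and 302 CPM in normoxia and 75.3, 74.2 and 74.3 in hypoxia, so the hypoxia libraries were nearly equal and no library came near the other group. The mean fell from 271 ± 26.4 to 74.6 ± 0.598 CPM (SD, n = 3), which gave a log2 fold change of -1.86 (SE 0.0877, 95% interval -2.07 to -1.66, adjusted p = 2.06e-05, edgeR's quasi-likelihood test). Of the same 12665 genes, 50 had a lower log2 fold change. Leaving out both libraries numbered 3 gave -1.77.

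**Figure D1:**
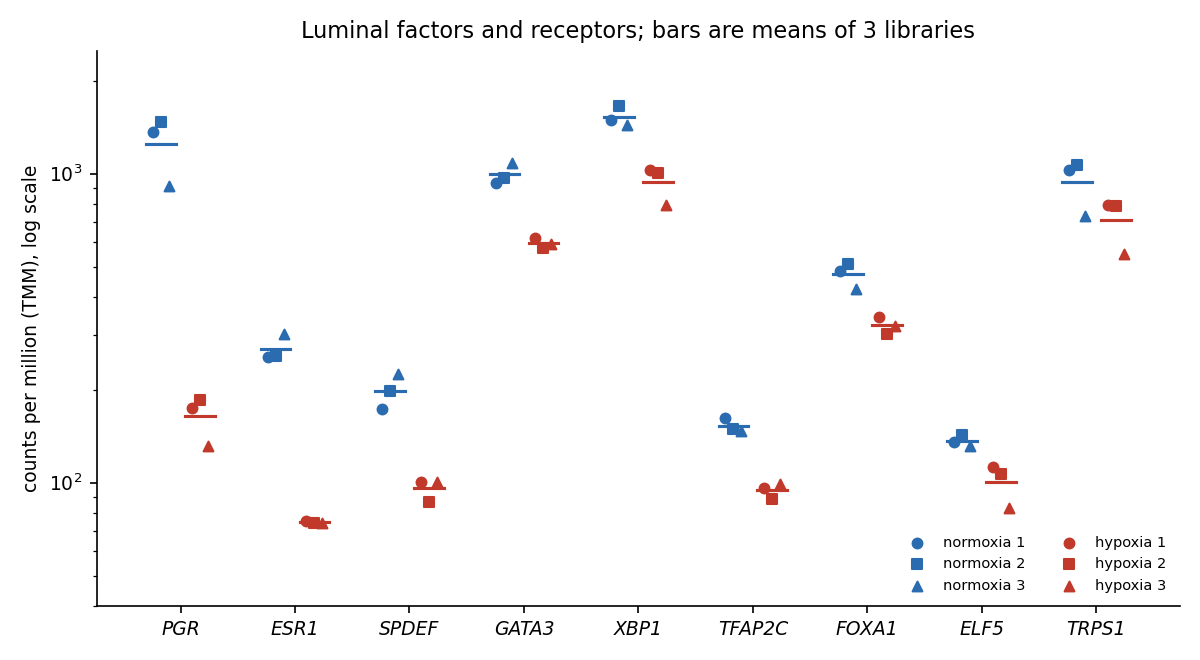
CPM (TMM factors, logarithmic axis) of the 9 genes in each of the 6 libraries, ordered by log2 fold change, with circles, squares and triangles for replicates 1, 2 and 3 and short bars for the means of 3 libraries. Hypoxia (red) lay wholly below normoxia (blue) for 8 genes, and the ranges of TRPS1 overlapped (549 to 794 against 731 to 1065 CPM).

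The pioneer and lineage factors fell less than the receptors. FOXA1 (chr14:38058757-38064325, minus strand) was at 485, 509 and 423 CPM in normoxia and 345, 302 and 322 in hypoxia. The groups did not overlap, and the lowest normoxia library (423 CPM) was nearest to the highest of hypoxia (345 CPM). The log2 fold change was -0.55 (SE 0.0940, adjusted p = 0.00177, edgeR's quasi-likelihood test), or 1.46-fold lower.

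GATA3 (chr10:8096667-8117164, plus strand), needed for the formation and upkeep of luminal cells, was at 932, 967 and 1085 CPM in normoxia and 621, 576 and 592 in hypoxia. Every normoxia library was well above every hypoxia library. Its log2 fold change was -0.74 (SE 0.0854, adjusted p = 3.20e-04, edgeR's quasi-likelihood test), or 1.67-fold lower.

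XBP1 (chr22:29190548-29196560, minus strand) encodes a factor of the unfolded protein response that is also highly expressed in estrogen receptor positive cells. It was at 1495, 1653 and 1437 CPM in normoxia and 1026, 1006 and 793 in hypoxia, with hypoxia replicate 3 the lowest. The log2 fold change was -0.70 (SE 0.118, adjusted p = 0.00160, edgeR's quasi-likelihood test). A gene count does not separate the spliced from the unspliced XBP1 RNA. Among 9 tested genes that splice XBP1 or are known as its targets, 3 rose and 3 fell (5 fell with the replicate number as a block). That was 33.3% each way, beside 30.4% higher and 29.1% lower of all tested genes. ERN1, the enzyme that splices XBP1 RNA, rose by 1.44 and DNAJB9, a chaperone of the endoplasmic reticulum, by 0.67, while SDF2L1 and CRELD2, both of the endoplasmic reticulum, had log2 fold changes of -1.17 and -1.03.

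SPDEF (chr6:34505579-34524110, minus strand), an ETS factor of secretory and luminal epithelium, had the largest fall after the receptors. It was at 174, 198 and 225 CPM in normoxia and 101, 86.8 and 100.4 in hypoxia. The groups were separate, with replicate 3 the highest of the normoxia libraries. Its log2 fold change was -1.05 (SE 0.112, adjusted p = 2.33e-04, edgeR's quasi-likelihood test), or 2.07-fold lower.

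TFAP2C (chr20:55204358-55214338, plus strand), an AP-2 factor that is known to regulate ESR1, was at 162, 149 and 147 CPM in normoxia and 96.2, 88.8 and 99.3 in hypoxia. The libraries within each group were close and the groups separate. The log2 fold change was -0.69 (SE 0.0790, adjusted p = 3.10e-04, edgeR's quasi-likelihood test).

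ELF5 (chr11:34500342-34535347, minus strand) was at 136, 142 and 132 CPM in normoxia and 113, 106 and 83.0 in hypoxia. The groups did not overlap, and hypoxia replicate 3 was the lowest. The log2 fold change was -0.44 (SE 0.117, 95% interval -0.71 to -0.17, adjusted p = 0.0124, edgeR's quasi-likelihood test). This call was lost with upper-quartile factors (adjusted p = 0.0901) and with scaling to library size alone (adjusted p = 0.0575).

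TRPS1, a GATA-type repressor that is expressed in most breast cancers, was the 1 gene that did not pass the test. It was at 1025, 1065 and 731 CPM in normoxia and 794, 785 and 549 in hypoxia. Hypoxia replicates 1 and 2 were above normoxia replicate 3, so the groups overlapped. The log2 fold change was -0.41 (SE 0.184, 95% interval -0.83 to 0.02, adjusted p = 0.0881, edgeR's quasi-likelihood test). Between libraries of the same number the log2 difference was -0.37, -0.44 and -0.42, and with the replicate number as a block TRPS1 was called lower (-0.41, adjusted p = 1.84e-04). Without normoxia replicate 3 it was called lower as well (-0.56, adjusted p = 0.0190, edgeR's quasi-likelihood test). That fit left out the lowest normoxia library and kept the lowest hypoxia library, which by itself makes the fall larger. TRPS1 was also called lower without both libraries numbered 3.

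Libraries numbered 3 deviated most for PGR and TRPS1. Against the mean of replicates 1 and 2, PGR in replicate 3 was lower by 0.64 log2 units in normoxia (-0.64) and by 0.46 in hypoxia (-0.46). TRPS1 was at -0.51 and -0.53 by the same measure, and ESR1 at 0.24 and -0.01. VIM, CAV1 and MSN were higher and FN1 was lower in the libraries numbered 3 of both groups, and their part in these values was not tested. The log2 ratio of PGR to TRPS1 had an SD of only 0.08 in normoxia and 0.06 in hypoxia, where its mean was lower by 2.51 (-2.51).

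**Figure D2:**
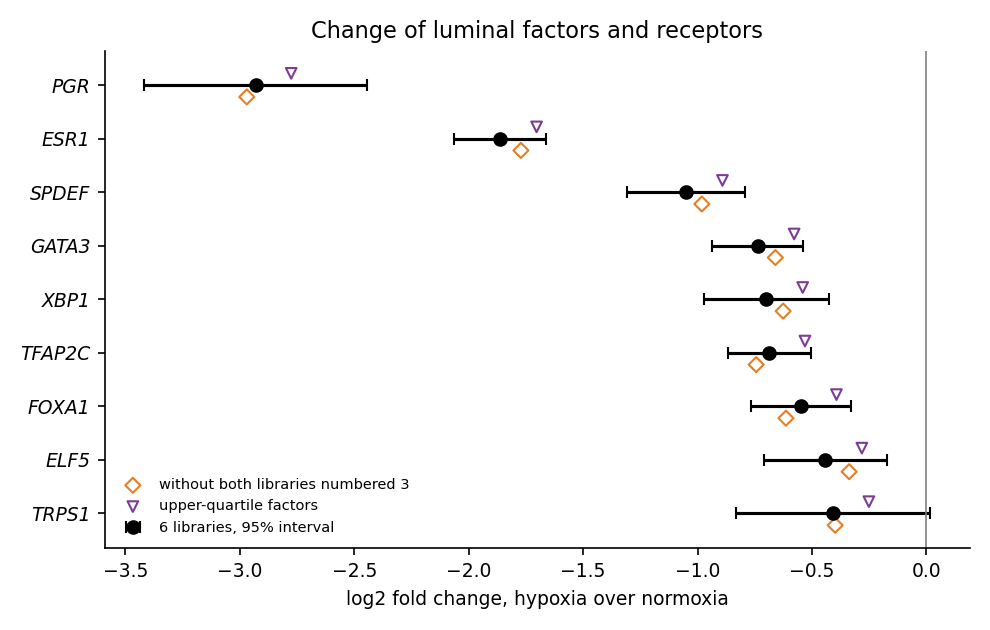
Log2 fold change of hypoxia over normoxia for the 9 genes, with filled circles and 95% intervals from edgeR's quasi-likelihood fit of 6 libraries, open diamonds for the fit without both libraries numbered 3 and open triangles for upper-quartile factors. All values lay below 0 in the 3 fits, from -2.97 for PGR to -0.25 for TRPS1, and the interval of TRPS1 reached 0.02.

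Of the 9 genes 8 were called lower, beside 29.1% of all tested genes, and 0 were called higher, beside 30.4%. At an unadjusted p under 0.05 the counts were likewise 8 lower and 0 higher. edgeR's exact test called 8 lower and DESeq2 called 9 lower, and both called 0 higher. For 8 genes every hypoxia library was below every normoxia library, which held for 32.4% of all tested genes, while 34.9% were separate in the other direction. With the replicate block 9 of 9 were called lower, beside 35.2% of all genes lower and 36.6% higher. The median log2 fold change of the 9 genes was -0.70, and that of all tested genes was 0.03. Without both libraries numbered 3, 9 of 9 were called lower. With upper-quartile factors, which moved the median of all tested genes to 0.19, 7 were called lower.

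Levels were compared between genes only per length, as CPM per kb of counted exon. In normoxia XBP1 had the highest level at 839.9 ± 61.5 CPM per kb (SD, n = 3), followed by GATA3 at 324 ± 26.1 and FOXA1 at 139.8 ± 13.1 CPM per kb. SPDEF, PGR and TRPS1 came next at 104, 95.8 and 92.6 CPM per kb, and each overlapped its neighbour in this order. TFAP2C and ELF5, at 53.3 and 53.0 CPM per kb, overlapped too, and ESR1 was the lowest at 23.7 ± 2.30 CPM per kb.

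In hypoxia XBP1, GATA3 and FOXA1 kept the first 3 places, at 517 ± 71.1, 194 ± 7.38 and 95.6 ± 6.26 CPM per kb. TRPS1 followed at 69.8 ± 13.7 CPM per kb, then SPDEF at 50.1, ELF5 at 39.1 and TFAP2C at 33.1 CPM per kb. PGR dropped from place 5 to place 8, at 12.6 ± 2.22 CPM per kb, and ESR1 stayed at place 9 with 6.50 ± 0.0521 CPM per kb. In this order ELF5 and TFAP2C were the 1 pair of neighbours whose ranges overlapped. Among all tested genes PGR went from the 95.6th to the 65.9th percentile of level per length and ESR1 from the 77.7th to the 48.8th, whereas XBP1 was at the 99.6th and the 99.4th.

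The levels per length of the 9 genes summed to 1656 to 1824 CPM per kb in normoxia and 913 to 1096 in hypoxia. PGR made up 5.53 ± 1.14% of this sum in normoxia and 1.23 ± 0.13% in hypoxia (SD, n = 3). XBP1 made up the largest share, at 48.6 ± 1.07% and 50.7 ± 2.68%.

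**Figure D3:**
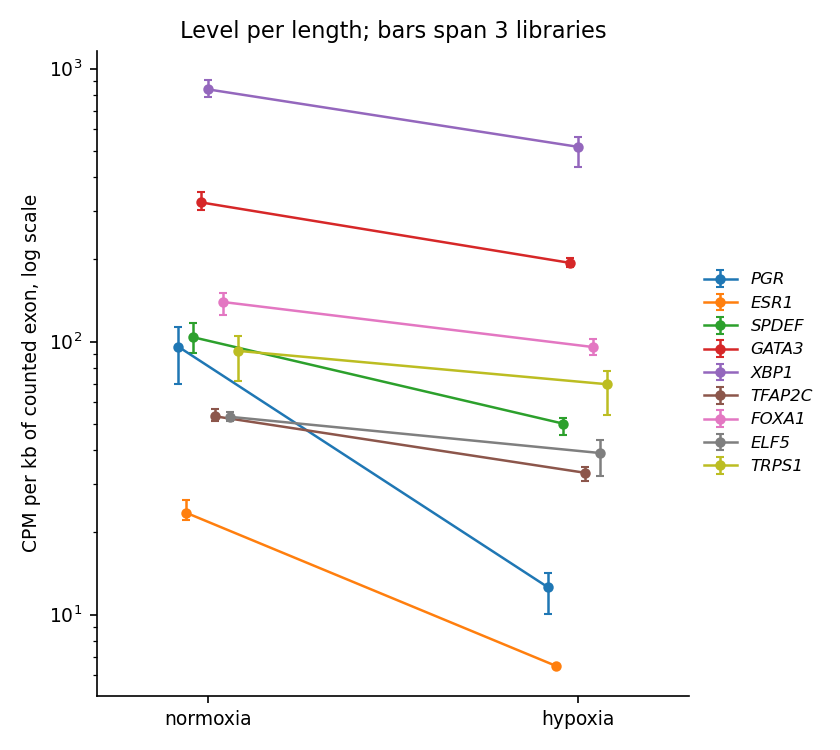
Level per length (CPM per kb of counted exon, logarithmic axis) of the 9 genes in normoxia and hypoxia, with points for means of 3 libraries and bars from the lowest to the highest library. The line of PGR crosses those of TRPS1, TFAP2C and ELF5 as it goes from 95.8 to 12.6 CPM per kb, and ESR1 is the lowest in both conditions.

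A ratio of 2 genes within a library does not depend on how the library is scaled. The ratio of PGR to ESR1, per kb, was 4.71, 5.04 and 2.65 in normoxia and 2.05, 2.20 and 1.56 in hypoxia. All 3 hypoxia ratios lay below the lowest normoxia ratio, and the mean log2 ratio changed by -1.06. The ratios of the other 7 genes to ESR1 were all higher in hypoxia, from 0.81 log2 units for SPDEF to 1.45 for TRPS1. GATA3 to ESR1 was the tightest, with a mean log2 ratio of 3.78 ± 0.04 in normoxia and 4.90 ± 0.04 in hypoxia (SD, n = 3). Each of the 8 ratios separated the groups, and each gave p = 0.10 in an exact permutation test (two-sided), which is the smallest p that 3 libraries against 3 allow and is unchanged by Benjamini-Hochberg adjustment over the 8.

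Over all 36 pairs of the 9 genes, 21 had ratios that separated the groups. These held all 15 pairs with PGR or ESR1. SPDEF fell by more than FOXA1, GATA3, TFAP2C and ELF5, with separate ratios, and XBP1 by more than TRPS1 and ELF5. The other 15 pairs, most of them among FOXA1, GATA3, XBP1, TFAP2C, TRPS1 and ELF5, had ratios that overlapped between the groups.

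**Figure D4:**
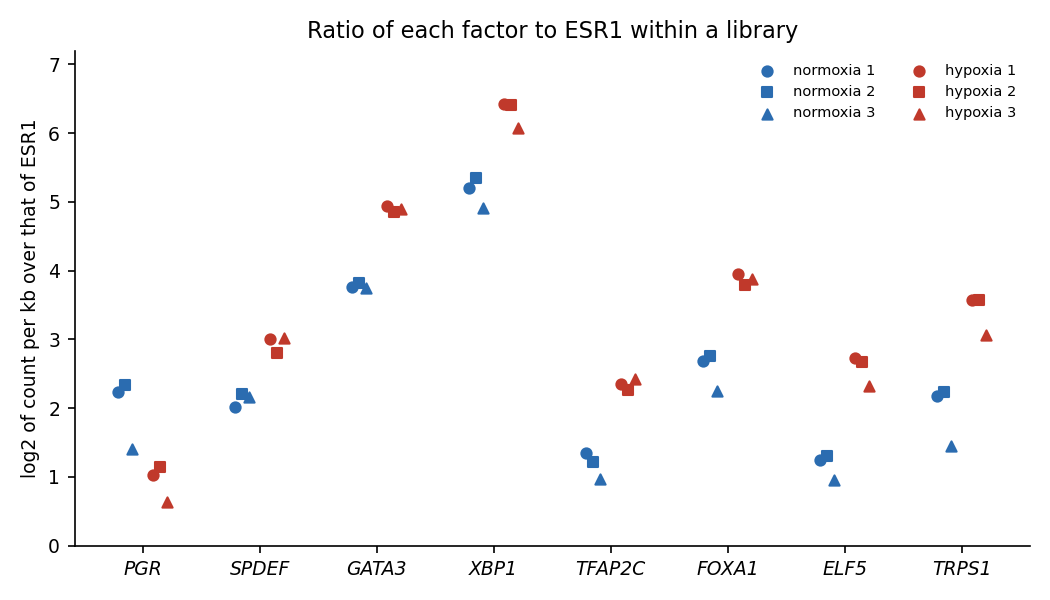
Log2 ratio of the count per kb of each gene to that of ESR1 in the same library, for normoxia (blue) and hypoxia (red), with symbols for the replicate number. The ratio of PGR was lower in hypoxia and the ratios of the other 7 genes were higher, with no overlap between groups for any of the 8.

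Genes whose pattern was most like that of a luminal factor were found by Pearson correlation of log2 CPM over the 6 libraries, among the 12665 genes averaging 100 counts or more. For ESR1 these were SIAH2 (r = 0.9995), a ubiquitin ligase, MARC1 (0.9994) and CTNS (0.9993), a lysosomal cystine transporter. For PGR they were KCNH1 (0.9991), a potassium channel, SKP1 (0.999), a ubiquitin ligase subunit, and SALL2 (0.9987). For FOXA1 they were LARP7, PPP1R10 and SERPINA6, for GATA3 HARS2, ARFIP2 and NOP2, and for XBP1 MPHOSPH10, RABEP1 and DCAF10. For SPDEF they were ATP23, FRAT1 and AGPAT3, for TFAP2C SERTAD4, AAR2 and ZNF732, and for ELF5 ACTR10, CYB5D1 and SPAST. For TRPS1 the highest r was 0.9946, with CCDC66, and SEC62 and CH17-340M24.3 came next. These values come from 6 points in 2 groups, and 1948 genes had r over 0.95 with ESR1, 1059 with PGR and 121 with TRPS1. Among the 9 genes GATA3 and SPDEF were the most alike (r = 0.9946), and SPDEF and TRPS1 the least (r = 0.4991).

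The relatives of these factors moved both ways, at shares near those of all tested genes. Of 16 paralogs of FOXA1, GATA3, TFAP2C and ELF5, 12 were tested, 4 rose and 4 fell, and their median log2 fold change was 0.15. That was 33.3% each way, beside 30.4% higher and 29.1% lower of all tested genes. FOXA2, FOXA3, GATA1 and TFAP2D stayed at or under 10 counts per library and were left out of the test. ELF3, an epithelial ETS factor, went from 73.8 ± 24.1 to 254 ± 4.39 CPM (SD, n = 3), a rise of 1.79 on the log2 scale (SE 0.205, adjusted p = 3.10e-04, edgeR's quasi-likelihood test). ELF4 rose by 0.49, and EHF, another epithelial ETS factor, was lower at -0.31, a call that was lost with upper-quartile factors (adjusted p = 0.199), with library size alone (0.106) and without hypoxia replicate 2 (0.0572).

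Among the GATA factors GATA6 rose by 1.24 and GATA5 by 0.83, both from under 10 CPM, and the call of GATA5 was lost when either hypoxia replicate 1 or 2, or normoxia replicate 1, was left out (adjusted p = 0.0588 to 0.0764). GATA2 and GATA4 fell, with log2 fold changes of -0.80 and -1.40, and GATA4 was also low, at 7.88 CPM in normoxia and 2.94 in hypoxia. Of the AP-2 factors TFAP2E fell from 2.75 to 1.17 CPM, with -1.22. TFAP2A, at 190.1 ± 1.60 and 205 ± 7.17 CPM, did not pass the test (0.11, adjusted p = 0.194). TFAP2B (0.74), ELF1 (0.19) and ELF2 (-0.03, with a positive sign under upper-quartile factors and under library size alone) did not pass it either, although ELF1 did with the replicate block (adjusted p = 0.0327). With upper-quartile factors 7 paralogs were called higher and 3 lower.

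Of 46 other nuclear receptors 35 were tested, and 18 rose and 7 fell, with a median of 0.37. These were 51.4% and 20.0% of those tested, beside 30.4% and 29.1% of all tested genes. RORA, RARB, HNF4G and NR4A3, all among the 18, had at most 17 counts in a normoxia library. They passed the filter only with their hypoxia libraries, which favours rises in this count. RORA, a receptor of the circadian system, had 5, 12 and 3 counts in normoxia and 378, 435 and 463 in hypoxia. NR1D1, a circadian repressor, rose by 2.00 on the log2 scale, from 13.2 ± 1.98 to 52.8 ± 11.3 CPM. RORB and NR2F6 fell, with -0.89 and -0.82. A further 3 receptors of this list were picked out after their values were seen. The glucocorticoid receptor NR3C1 rose by 0.67, the mineralocorticoid receptor NR3C2 by 0.68 and estrogen receptor beta (ESR2) by 0.84, the last from 1.58 ± 0.248 to 2.84 ± 0.341 CPM.

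Steroid receptors are held in a hormone-binding state by HSP90 and its partners. All 10 of these chaperones fell, with a median of -0.82, and 8 did so with upper-quartile factors. FKBP4 fell from 1099.6 ± 197 to 315 ± 5.13 CPM (-1.80) and HSP90AA1 from 4283 ± 759 to 1595 ± 189 CPM (-1.42). At an unadjusted p under 0.05, 0 chaperones were higher, and the exact test and DESeq2 also called 0 higher. The 24 receptor coregulators had a median of 0.01, with 6 higher (25.0%) and 5 lower (20.8%), beside 30.4% and 29.1% of all tested genes. Their largest changes were NCOA7, a coactivator, at 1.12, LCOR, a corepressor, at 0.54, the RNA helicase DDX5 at -1.09 and PELP1 at -0.49, whose call was lost with upper-quartile factors (adjusted p = 0.0642) and without hypoxia replicate 1 (0.0858) or 2 (0.0784). Without hypoxia replicate 1, and without hypoxia replicate 2, 3 coregulators were called lower.

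Among 12 known targets of estrogen receptor alpha other than PGR, 9 fell and 2 rose, with a median of -0.60. Of all tested genes 29.1% were called lower and 30.4% higher. PDZK1, a scaffold protein, was at -2.39 (SE 0.596) and the chemokine CXCL12 at -1.98. The receptor tyrosine kinase RET rose by 1.65. TFF1, the second that rose, did so by 1.14 from 0.688 ± 0.398 CPM, and its call was lost when normoxia replicate 2 or 3, or hypoxia replicate 1 or 3, was left out (adjusted p = 0.0737 to 0.103).

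Of 22 other transcription factors of mammary epithelium 11 rose and 6 fell, with a median of 0.31, and without hypoxia replicate 1 the number that rose was 7. KLF4 rose by 1.83 and SOX9, known from mammary progenitors, by 1.38, while MYB and NFIB had log2 fold changes of -0.89 and -0.73. Of 18 luminal marker genes 1 rose and 7 fell, with a median of -0.32, and with the replicate block 3 rose and 11 fell. The same counts, 3 and 11, were obtained without both libraries numbered 3. In the main test 5.56% of the luminal markers were higher and 38.9% lower, beside 30.4% and 29.1% of all tested genes. AGR2, a disulfide isomerase of secretory cells, and FBP1, an enzyme of gluconeogenesis, fell, with -1.80 and -1.81, and the tight junction gene CLDN7 rose by 0.79. EPCAM (0.03), CDH1 (0.19) and KRT19 (-0.04) did not pass the test, and CDH1 passed it with the replicate block (adjusted p = 0.00965).

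Markers of other cell types were measured beside the 9 genes. Of 16 basal markers 11 were tested, of which 6 rose and 0 fell, at an unadjusted p under 0.05 as well as in the exact test and DESeq2. Of all tested genes 30.4% were called higher and 29.1% lower. Among the 6, KRT6B, KRT16 and KRT17 had under 10 counts in every normoxia library. They passed the filter only through hypoxia, so a rise was the only call open to them. The summed level of all 11 tested basal markers was 367 to 378 CPM in normoxia and 422 to 526 CPM in hypoxia. EGFR rose by 1.53 and MYLK by 0.74, the latter not when hypoxia replicate 1 was left out (adjusted p = 0.0683). KRT5, KRT6A, KRT14, CNN1 and SOX10 had too few counts to be tested. Of 17 mesenchymal markers 11 were tested, of which 6 rose and 0 fell by the same measures. Without normoxia replicate 3, with genes filtered anew, 11 of the 17 were called higher. That fit left out the normoxia library with the high VIM count but kept hypoxia replicate 3, where VIM had 1001 counts. PDGFRB and THY1, among the 6, likewise had under 10 counts in every normoxia library and could only rise. CDH2, also among the 6, had 30, 17 and 8 counts in normoxia replicates 1 to 3 and passed the filter only with its hypoxia libraries. The summed level of all 11 tested mesenchymal markers was 146 to 165 CPM in normoxia and 231 to 269 CPM in hypoxia. AXL and S100A4 rose by 1.97 and 1.52. Without both libraries numbered 3, 6 basal and 8 mesenchymal markers were called higher, and 1 of each was called lower. Of 8 immune and endothelial markers 3 were tested and 2 rose, among them CD68, a lysosomal protein, by 2.36, with a summed level of at most 11.4 CPM in a library. The part of these markers in the falls of the 9 genes was not tested.

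**Figure D5:**
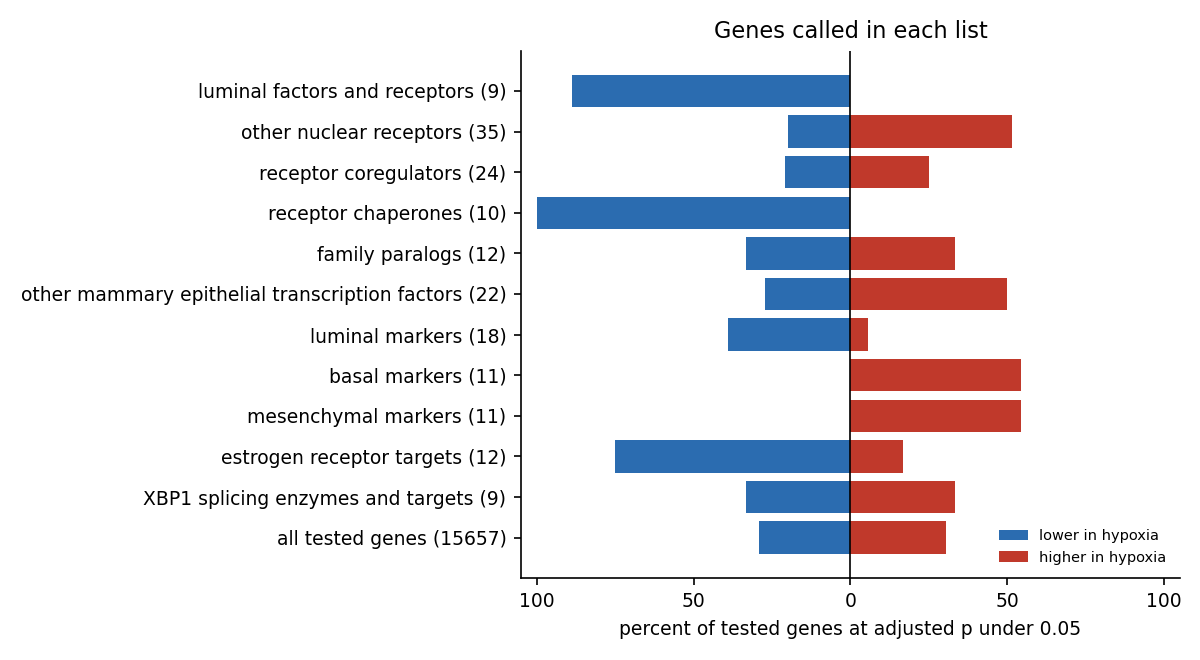
Percent of the tested genes of each list called lower (blue, to the left) or higher (red, to the right) in hypoxia at an adjusted p under 0.05 by edgeR's quasi-likelihood test, and the number tested stands in brackets. The luminal factors and receptors (88.9%), the receptor chaperones (100%) and the estrogen receptor targets (75%) lie mostly on the lower side, beside 29.1% lower and 30.4% higher of all tested genes.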

How the data were processed

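Gene counts of 6 RNA sequencing libraries of T47D cells were used, 3 from normoxia and 3 from hypoxia, grouped by their labels. The authors deposited 1 table of raw counts per library, without normalization. Per the labels, mRNA libraries were stranded. Skewer, STAR 2.5.2a and featureCounts 1.5.1 with the RefSeq genes of GRCh37 (hg19) were named in the study's methods or in the submitters' processing notes. The strand setting and the handling of reads with several matches are not given in the sources used here.

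Counts were analysed with R 4.3.3 and edgeR 4.0.16. Genes were kept by filterByExpr (minimum count 10, minimum total 15), scaled with TMM factors and tested across all 15657 kept genes with the quasi-likelihood test, with condition as its single term and p-values adjusted by Benjamini-Hochberg. A gene is called at an adjusted p under 0.05. Standard errors and 95% intervals follow from that test. Ratios and plots were made with Python 3.11.15, scipy 1.17.1 and matplotlib 3.10.9. The scripts were tested on simulated data.

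The 9 genes and the companion lists were chosen with earlier results of these data known. The text names all 9, genes whose exons overlap theirs, every tested paralog, the 3 genes most correlated with a member, and in each list the 2 largest rises and 2 largest falls among called genes averaging 100 counts or more. KRT8, KRT5, KRT14, KRT19, EPCAM, CDH1, PTPRC, VIM, CAV1, MSN, CAV2, NR3C1, NR3C2, ESR2 and TFF1 were named after their values were seen. So were FN1, KRT6B, KRT16, KRT17, PDGFRB, THY1, CDH2, RARB, HNF4G and NR4A3.

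Libraries with the same number deviated together from their group means (correlations across genes of 0.338, 0.422 and 0.575, each over 0.1), so the replicate number was taken to pair them, a pairing the study's methods mention. Alternatives were edgeR's exact test, DESeq2 1.42.0, other scaling factors, no filter, the replicate block, each library left out, and both libraries numbered 3 left out.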

Additional observations from a re-analysis of the deposited data

How the results depend on the processing

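The log2 fold change of each of the 9 genes kept its sign in all 127 refits, and in 121 it also kept its side of the threshold. TRPS1, not called in the main test (-0.41, adjusted p = 0.0881), was called lower with DESeq2 (-0.42, adjusted p = 0.0494), with the replicate block (-0.41, adjusted p = 1.84e-04) and without both libraries numbered 3 (-0.40, adjusted p = 2.15e-05), and its value ranged from -0.56 to -0.26 when 1 library was left out. ELF5 lost its call with upper-quartile factors (-0.28, adjusted p = 0.0901) and with library size only (-0.32, adjusted p = 0.0575). The replicate block changed no other call of the 9 genes. Of all tested genes 4765 were called higher and 4551 lower, a split that moved from 51.1% higher to 64.5% with upper-quartile factors (5972 and 3285) and to 61.0% with library size only (5614 and 3596), where the medians of all genes were 0.19 and 0.14. The cause was not tested. The order of the levels per length was the same with library size only for 9 of 9 genes in both groups. With 3 libraries per group, 1 cell line and 1 time point, ratios could not reach a p under 0.10, the conditions cannot be told apart from anything that was handled with them, and gene counts show neither protein nor splice forms.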
